A study of Mus musculus with 10 samples.

Results

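The genes of the mouse mitochondrial genome were examined in RNA-seq counts of dorsal telencephalon, the embryonic tissue that gives rise to the cerebral cortex, at E14.5. All genes whose mouse symbol starts with mt- were taken, and no measured value entered the choice. There were 37 of them among the 43629 gene identifiers of the count tables: 13 mRNA genes, 22 tRNA genes and 2 rRNA genes. The study asked how transcription in the developing cortex changes without DOT1L, a methyltransferase of histone H3. Of the 10 samples, 5 were controls with the genotype Dot1l-cKO f/+ and no Cre (+/+), and 5 were Dot1l-cKO with the genotype Dot1l-cKO f/f and Cre (Cre/+). All were C57BL/6 embryos, and controls were littermates. Controls thus carried 1 floxed Dot1l allele and no Cre. Every Dot1l-cKO sample carried a Cre allele, so loss of Dot1l and the Cre allele cannot be told apart. Libraries were made from total RNA after depletion of ribosomal RNA.

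The mitochondrial genome is a small circular DNA molecule that is transcribed by its own polymerase, POLRMT, from promoters on each strand into long precursor RNAs. Most tRNA genes lie between the rRNA and mRNA genes, and excision of the tRNAs by nucleases releases the other transcripts. The mRNAs encode subunits of complexes I, III, IV and V of the respiratory chain, and all other proteins of the organelle are encoded in the nucleus.

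Total counts were between 54202349 and 66556034 per sample. Each sample's column in the table of normalised values starts with a number whose meaning no source gives, and it is used as a batch under the name header number. Replicate 1 of either group had 51, replicates 2 and 3 shared 57, replicate 4 had 90 and replicate 5 had one of its own. The 6 markers of dorsal telencephalon used were all present, with a summed level of 1256 to 1558 CPM (counts scaled by TMM to a library of 1000000). Of the marker lists for other cell types, all 4 microglia genes were DE (adjusted p under 0.05) and higher in Dot1l-cKO, with sums of 22.7 to 38.3 CPM in controls and 45.4 to 66.1 CPM in Dot1l-cKO. Of the 6 dorsal markers, 1 was DE and lower in Dot1l-cKO, where 7.11% of all tested genes were DE. No gene of ventral telencephalon, choroid plexus or meninges was DE, but their sums varied widely between samples. They were 2.33 to 207.8, 1.48 to 610.2 and 11.6 to 374.1 CPM. Dot1l itself was not DE by its gene-level count (31.3 to 41.5 CPM in controls, 20.1 to 51.7 CPM in Dot1l-cKO, adjusted p = 0.864). That count takes in all exons, also any that a deletion leaves in place, and single exons were not tested. By qRTPCR, the paper reported significantly less Dot1l mRNA in Dot1l-cKO telencephalon at E14.5.

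How the genes abut bears on what a read can be assigned to, so 3 places of the genome are shown. Sequences are from the GENCODE transcripts of GRCm38 (mm10) and run 5′ to 3′ on the plus strand. The first stretch, chrM:2661-2765, holds the whole of mt-Tl1, the leucine tRNA gene, in capitals between the end of mt-Rnr2 and the start of mt-Nd1, with no base left between the 3 genes. In the second, chrM:7912-7984, the capitals are the 43 bases that mt-Atp8 and mt-Atp6 share. In the third, chrM:10152-10188, they are the 7 bases shared by mt-Nd4l and mt-Nd4.
mt-Rnr2/mt-Tl1/mt-Nd1: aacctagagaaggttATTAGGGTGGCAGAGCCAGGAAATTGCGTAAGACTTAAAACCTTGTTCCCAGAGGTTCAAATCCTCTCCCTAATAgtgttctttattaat
mt-Atp8/mt-Atp6: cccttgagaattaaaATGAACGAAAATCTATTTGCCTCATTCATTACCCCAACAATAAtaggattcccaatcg
mt-Nd4l/mt-Nd4: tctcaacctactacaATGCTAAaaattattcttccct

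Nuclear DNA holds copies of mitochondrial DNA, and a read that aligns equally well to both places cannot be assigned to either. A block on the minus strand of chromosome 1, chr1:24611535-24616188, was collinear with chrM:6390-11042, which are 4654 and 4653 bases. In it, 7 annotated pseudogenes matched mt-Co1, mt-Co2, mt-Atp6, mt-Co3, mt-Nd3, mt-Nd4l and mt-Nd4. The matches to mt-Co2, mt-Atp6, mt-Co3, mt-Nd4l and the first 876 bases of mt-Nd4 had no mismatch. The others differed by a base each, which is in capitals in the stretches shown here. Counted from 1 at the 5′ end of the mitochondrial gene, the differences were A1066T between mt-Co1 and Gm29216 and T3C between mt-Nd3 and Gm28438. The stretches are chrM:6390-6423 with chr1:24616155-24616188, and chrM:9459-9491 with chr1:24613087-24613119, the nuclear ones read on the minus strand.
mt-Co1: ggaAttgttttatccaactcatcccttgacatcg
Gm29216: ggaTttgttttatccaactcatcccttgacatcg
mt-Nd3: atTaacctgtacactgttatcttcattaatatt
Gm28438: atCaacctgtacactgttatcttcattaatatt

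The 2 rRNA genes encode the RNAs of the small and large subunits of the mitochondrial ribosome, mt-Rnr1 (ENSMUSG00000064337, chrM:70-1024) and mt-Rnr2 (ENSMUSG00000064339, chrM:1094-2675). They took most of the mitochondrial counts in 8 of the 10 samples, even though ribosomal RNA had been depleted. In control replicates 1 to 5, mt-Rnr1 had 9239.7, 333.9, 591.6, 10757.9 and 6678.2 CPM. In Dot1l-cKO replicates 1 to 5 it had 10080.3, 30.1, 179.8, 4910.7 and 8290.4 CPM. Replicates 2 and 3 of both groups, the samples with header number 57, were the low ones, and control and Dot1l-cKO overlapped. For mt-Rnr2 the controls had 89696.2, 3353.4, 4159.8, 68242.2 and 63519.1 CPM. The Dot1l-cKO samples had 105748.1, 413.3, 2124.4, 53221.3 and 49593.6 CPM. The low samples were again those with header number 57, and the lowest was Dot1l-cKO replicate 2 for both genes.

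Neither rRNA gene differed between genotypes beyond the spread of the samples. The log2 fold change of Dot1l-cKO over control was -0.23 with an SE of 1.25 for mt-Rnr1 (edgeR quasi-likelihood test, adjusted p = 0.943). For mt-Rnr2 it was -0.12 with an SE of 1.21 (adjusted p = 0.974). Both groups hold samples with header number 57. With the replicate number as a block, the log2 fold changes were -1.12 with an SE of 0.53 (adjusted p = 0.222) and -0.84 with an SE of 0.43 (adjusted p = 0.251), and with the header number as a block they were -1.0 and -0.72. Over the 6 other samples alone, the log2 fold changes were -0.20 with an SE of 0.27 and -0.094 with an SE of 0.28, and the adjusted p-values were 0.718 and 0.882. Within the 4 samples with header number 57, the log2 fold changes were -2.12 and -1.55 with adjusted p-values of 0.338 and 0.389. Both Dot1l-cKO samples were below both controls for each gene, as for mt-Tm, mt-Nd2, mt-Tw, mt-Atp8 and mt-Cytb. For mt-Co1 and mt-Co3 both were above. With so few samples such a split carries little weight, and its share over all genes was not computed. Of all genes, 1 was DE there. The test of whether the genotype difference depends on the header number gave adjusted p = 0.728 for both genes, with an unadjusted p of 0.0441 for mt-Rnr1. Across all tested genes, 0% were DE in that interaction (0 of 17039 by edgeR, 12 by DESeq2), and 6.29% had an unadjusted p under 0.05.

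**Figure D1:**
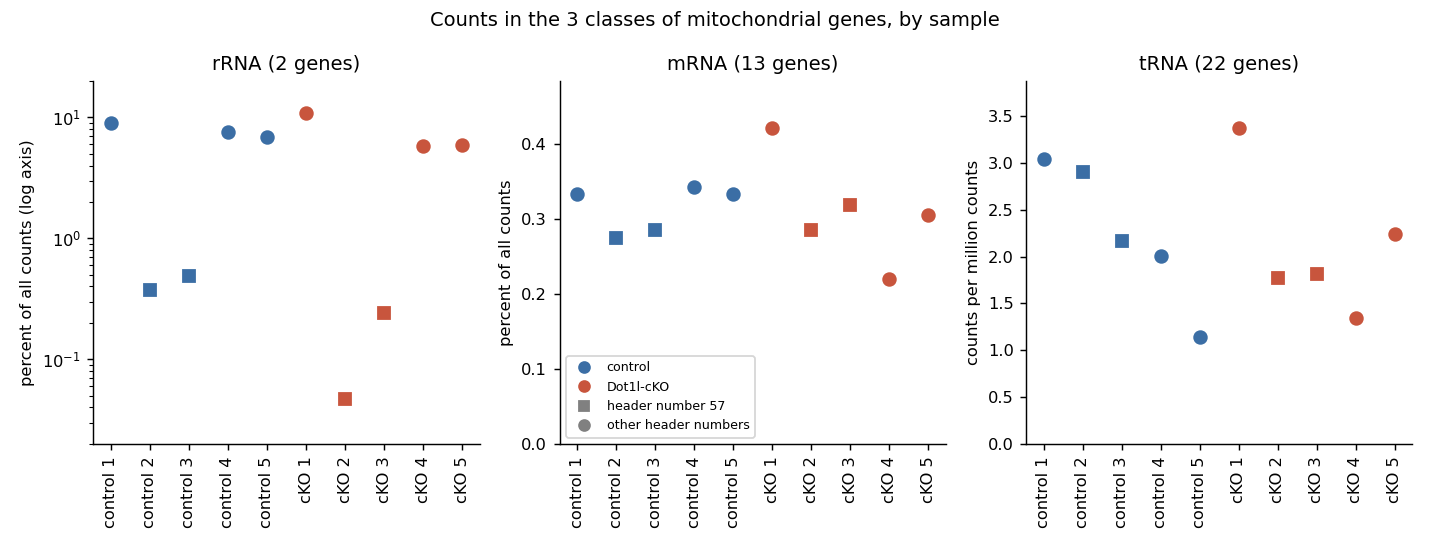
Counts in the rRNA, mRNA and tRNA genes by sample, as percent of all counts for rRNA (log axis) and mRNA and as counts in every 1000000 counts for tRNA, with control in blue, Dot1l-cKO in red and header number 57 as squares. The 4 squares lie at 0.0471% to 0.492% for rRNA, below the 5.79% to 10.9% of the other samples, and within the range of the other samples for mRNA and tRNA.

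The difference by header number was known before these values were computed, so it is given as a description. The rRNA genes held 0.0471% to 0.492% of all counts in the samples with header number 57 and 5.79% to 10.9% in the others. The lowest of the others was thus 11.8 times the highest of the former. The spread among the 4 low samples was itself 10.4-fold, against 1.89-fold among the other 6. The log2 fold change of header number 57 over the others, with genotype as a term, was -5.17 with an SE of 0.65 for mt-Rnr1 and -5.00 with an SE of 0.56 for mt-Rnr2. There were 19.4 to 27.2 rRNA counts per mRNA count in the 6 other samples, and 0.165 to 1.72 in the 4 with header number 57. In every sample mt-Rnr1 was the lesser of the pair, with 6.8% to 14.3% of the rRNA counts, and this share overlapped between the header numbers. Cytoplasmic rRNA loci, of which 2 of 5 were measured, summed to 5987 to 8779 CPM with header number 57 and to 4641 to 6844 CPM in the others. Short nuclear-encoded RNAs overlapped as well, at 33882 to 42026 CPM and 35627 to 41821 CPM. So did genes annotated snoRNA, snRNA or scaRNA, at 2006 to 3034 CPM and 2420 to 3756 CPM. Of these 2910 genes, 1978 were at 0 in every sample and 19 were DE by header number 57. Of the 6 dorsal telencephalon markers, 2 were DE by header number 57, where 11.4% of all tested genes were. How these libraries came to differ was not tested.

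The 13 mRNA genes together held 0.22% to 0.421% of the counts. Their level per length, in CPM per kilobase, was highest for mt-Co1 (ENSMUSG00000064351, chrM:5328-6872), which encodes the catalytic subunit of complex IV, with a mean of 1396.3 over the 10 samples. It was followed by mt-Nd1, of complex I, at 391.7 and by mt-Cytb, of complex III, at 352.0. The complex I genes mt-Nd2, mt-Nd5 and mt-Nd4 came next at 51.9, 42.6 and 38.7, and mt-Atp8, of complex V, and mt-Nd6, of complex I, had 22.3 and 13. The mean of mt-Atp8 rested on replicate 1 of both groups, at 61.6 in control and 121.0 in Dot1l-cKO. The other samples of mt-Atp8 had 1.19 to 10.3, which overlapped the 1.34 to 5.85 of mt-Co3. The lowest were mt-Co3 at 3.31, mt-Co2 and mt-Nd3 at 2.62 each, mt-Atp6 at 1.18 and mt-Nd4l at 0.0574. In this order, the lowest sample of mt-Co1 lay above the highest of mt-Nd1, as did mt-Cytb above mt-Nd2 and mt-Atp6 above mt-Nd4l, and the ranges of all other neighbours over the samples overlapped.

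The 5 genes at the low end by mean level were those whose sequence is shared almost whole with the copies on chromosome 1. Of all windows of 100 bases, 97.6% to 99.9% were found in an annotated nuclear copy for mt-Co2, mt-Atp6, mt-Co3, mt-Nd3 and mt-Nd4l. For mt-Nd4 it was 60.8%, so its place in the order is uncertain too: per 1000 windows found in no copy its mean was 106.4 CPM, above the 59.3 of mt-Nd2 and the 45.0 of mt-Nd5. The share was 30.8% for mt-Co1 and 3.2% for mt-Nd2, and for mt-Nd1, mt-Nd5, mt-Nd6, mt-Cytb and mt-Atp8 it was 0%. With windows of 50 bases it was 51.1% for mt-Co1, 8.2% for mt-Nd2 and 7.6% for mt-Nd5. It stayed at 0% for mt-Nd1, mt-Nd6, mt-Cytb and mt-Atp8. The 5 shared genes make up 24.5% of the bases of the mRNA genes, and they held 0.124% to 0.296% of the mRNA counts. mt-Atp8 lies inside the block too. Only its last 43 bases, those shared with mt-Atp6, lie under a transcript annotated in the block, and they are shorter than a window. Its share of 0% thus does not show that its sequence is unique, and its level is uncertain too. Only annotated transcripts were searched, so these shares are lower limits of what the genome holds.

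The counts of the shared genes were small in every sample. They were 59 to 179 for mt-Co2, 24 to 78 for mt-Atp6, 65 to 243 for mt-Co3, 25 to 78 for mt-Nd3 and 0 to 2 for mt-Nd4l. The last, the lowest per length, had 1, 1, 1, 1 and 2 counts in controls and 1, 0, 2, 0 and 1 in Dot1l-cKO. Their nuclear copies had counts of the same order: 51 to 112 for Gm28661 (mt-Co2), 7 to 46 for Gm10925 (mt-Atp6), 101 to 221 for Gm28437 (mt-Co3), 6 to 57 for Gm28438 (mt-Nd3) and 0 to 4 for Gm10222 (mt-Nd4l). Summed over the samples, mt-Co3 had 1515 counts and its copy had 1689. Which of the places these reads came from cannot be told from the counts, and the values of these 5 genes are uncertain for that reason. mt-Co1, by contrast, had 97156 to 147634 counts in each sample, and Gm29216, the copy of its end on chromosome 1, had 79 to 155. A further annotated copy, Gm13340 on chromosome 2, matched mt-Co1 over its whole length at 97.6% identity and had 44 to 122 counts.

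**Figure D2:**
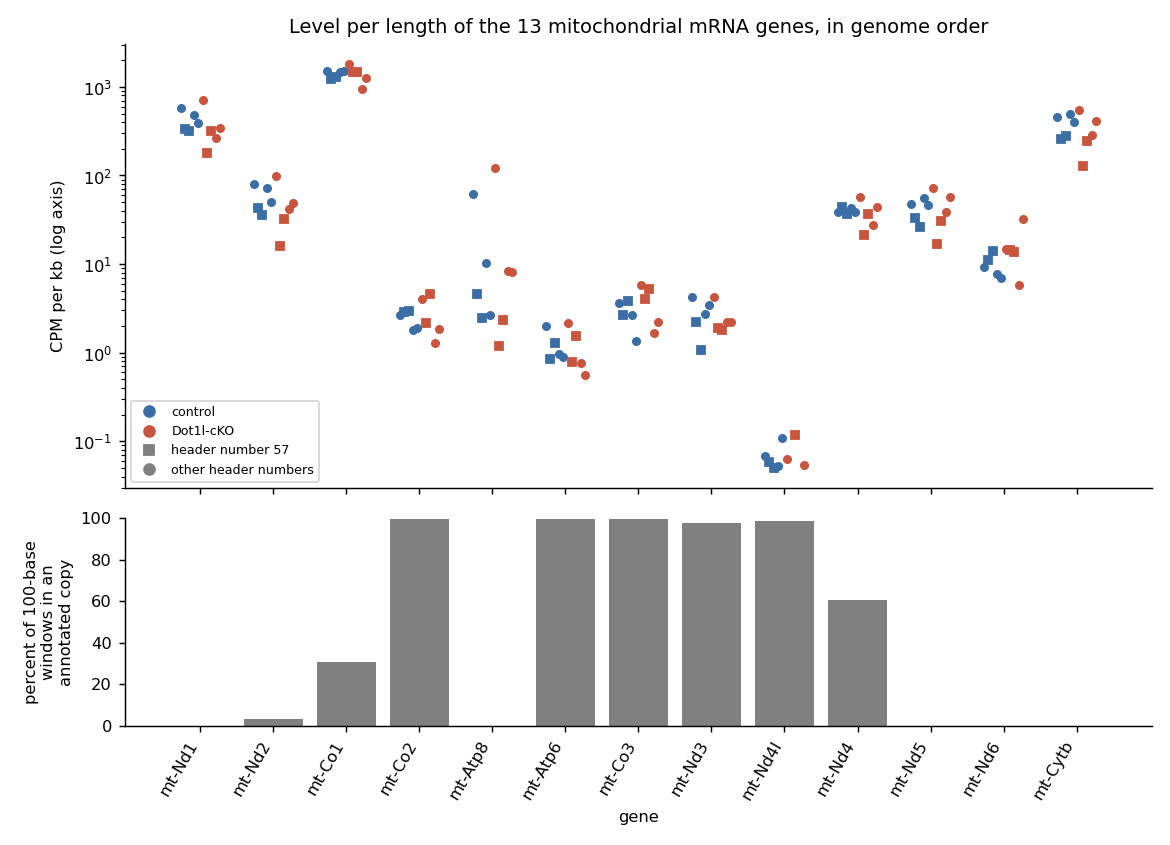
CPM per kilobase of the 13 mRNA genes in genome order (log axis, 1 point per sample, samples with no count left out) above the percent of each gene's 100-base windows found in an annotated nuclear copy. The 5 genes with bars of 97.6% or more are also the lowest in mean level, from 3.31 for mt-Co3 down to 0.0574 for mt-Nd4l.

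Between genotypes, none of the mRNA genes was DE. Of the 13, 12 passed the filter on low counts (mt-Nd4l did not). By edgeR, 0 of these 12 were DE, where 7.11% of all 17039 tested genes were. DESeq2 called no gene of the class, but it gave mt-Atp8 no adjusted p. None had an unadjusted p under 0.05, while 20.6% of all genes did. Their log2 fold changes ran from -0.24 to 0.79 with a median of -0.023, beside -0.0056 for all genes, and 5 were above 0 and 7 below. None of the 12 separated the groups without overlap, as 8.34% of all genes did. With 12 genes, counts of 0 are not far from these shares. As a share of all counts the mRNA class was 0.314% ± 0.0315 in controls and 0.31% ± 0.0727 in Dot1l-cKO (SD, n = 5 each).

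mt-Nd6 (ENSMUSG00000064368, chrM:13552-14070) is the only mRNA gene on the minus strand and had the lowest p of the class. The controls had 4.82, 5.77, 7.32, 4.02 and 3.65 CPM. The Dot1l-cKO samples had 7.64, 7.40, 7.09, 3.03 and 16.9 CPM. Dot1l-cKO replicate 5 was far above all other samples, Dot1l-cKO replicate 4 was the lowest of all, and the groups overlapped. The log2 fold change was 0.72 with an SE of 0.37 (adjusted p = 0.312). It was between 0.29 and 0.93 when a sample was left out, the lowest without Dot1l-cKO replicate 5.

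mt-Co3, a core subunit of complex IV, had the next-lowest p. It had 2.89, 2.07, 2.98, 2.07 and 1.05 CPM in controls. In Dot1l-cKO it had 4.58, 3.15, 4.11, 1.33 and 1.74 CPM. Replicates 1 to 3 of Dot1l-cKO were above every control, replicates 4 and 5 were not, and the log2 fold change was 0.43 with an SE of 0.37 (adjusted p = 0.570). This is a gene with a nuclear copy of identical sequence, and that copy, Gm28437, had a log2 fold change of 0.33 with an SE of 0.18 (adjusted p = 0.351).

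mt-Cytb (ENSMUSG00000064370, chrM:14145-15288) has no window shared with an annotated copy. Controls had 528.5, 295.9, 319.5, 562.1 and 461.6 CPM. Dot1l-cKO samples had 631.9, 146.8, 279.2, 326.7 and 474.9 CPM. The highest and the lowest sample were both Dot1l-cKO, and the log2 fold change was -0.22 with an SE of 0.33 (adjusted p = 0.766). For mt-Co1 the controls had 2315.0, 1895.2, 1986.4, 2272.4 and 2350.5 CPM. The Dot1l-cKO samples had 2784.4, 2276.9, 2284.6, 1464.5 and 1943.4 CPM. The Dot1l-cKO samples enclosed the whole range of the controls, and the means were 2163.9 ± 208.0 and 2150.8 ± 487.2 CPM (SD, n = 5 each). The log2 fold change of mt-Co1, -0.0088 with an SE of 0.15 (adjusted p = 0.985), was the most precise of the class.

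**Figure D3:**
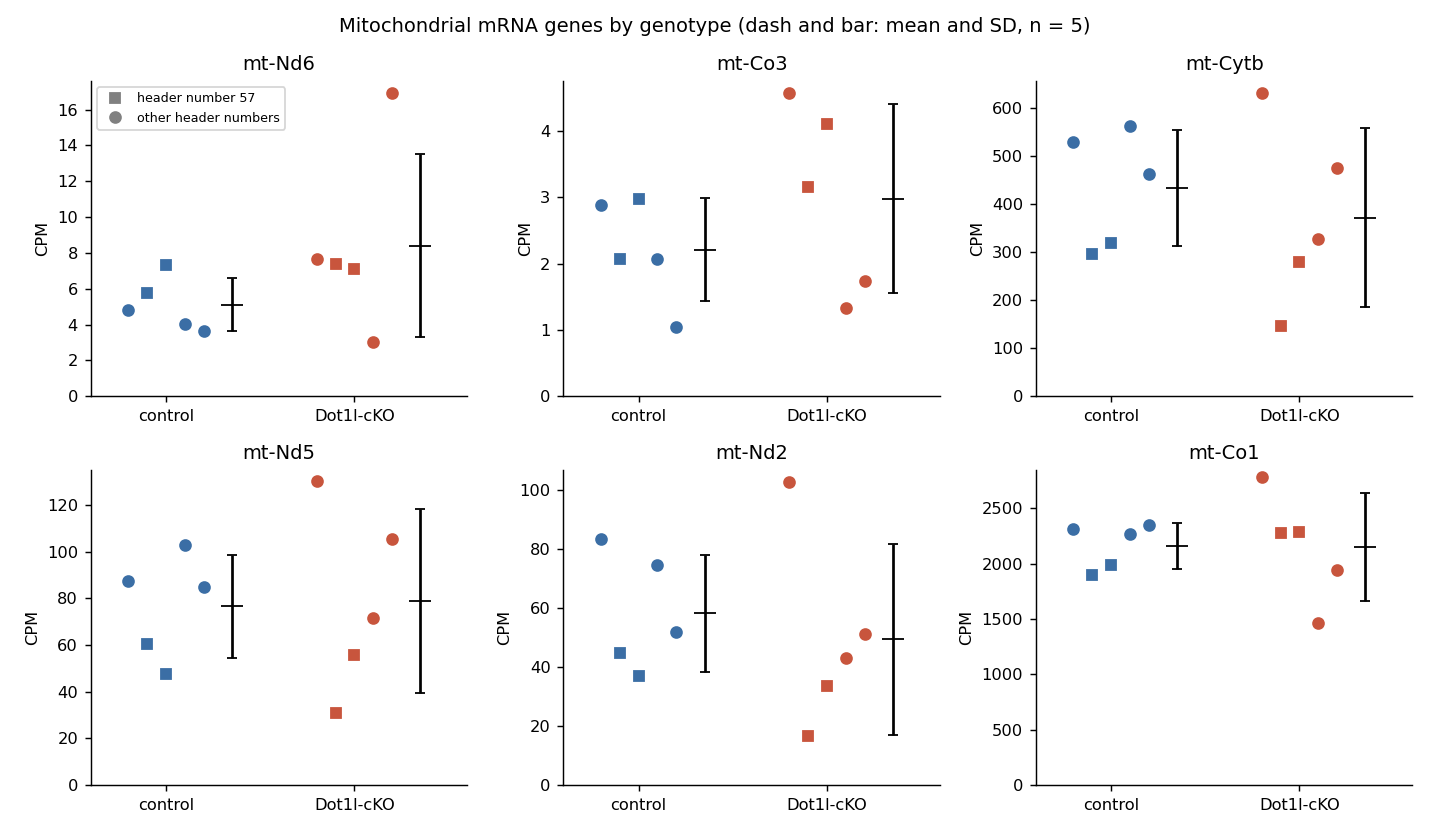
CPM of 6 mRNA genes by genotype, with a point per sample (squares: header number 57) and the mean and SD beside each group. Control and Dot1l-cKO overlap in all 6 panels, and the squares are the low points for mt-Cytb and mt-Nd5.

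By header number, part of the mRNA genes were lower together with the rRNA genes. With genotype as a term, 3 of the 12 tested were DE between header number 57 and the others, all lower, where 11.4% of all tested genes were DE and 6.12% were lower. These 3 were mt-Nd5 and mt-Nd2, of complex I, and mt-Cytb. mt-Nd5 (ENSMUSG00000064367, chrM:11742-13565) had 60.6, 47.6, 30.8 and 55.9 CPM in the 4 samples with header number 57. In the others it had 87.4, 102.7, 84.8, 130.2, 71.6 and 105.3 CPM. The samples did not overlap, and the log2 fold change was -1.0 with an SE of 0.21 (adjusted p = 0.0143). For mt-Cytb, with its values given above, the 4 samples also lay below the other 6, with means of 260.4 ± 77.5 and 497.6 ± 104.1 CPM (SD, n = 4 and 6, log2 fold change -0.95, SE 0.21, adjusted p = 0.0184). Samples overlapped for mt-Nd2 (ENSMUSG00000064345, chrM:3914-4951), at 16.5 to 44.6 and 43.1 to 102.6 CPM, and its log2 fold change was -1.08 with an SE of 0.29 (adjusted p = 0.0396). Of the 12 genes, 2 separated the header numbers without overlap, both of them lower with 57, as 5.12% of all genes were.

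These calls rested in part on few samples. Without control replicate 2, mt-Nd5 was the only one of the 3 past the threshold (mt-Cytb adjusted p = 0.0516, mt-Nd2 adjusted p = 0.0630), and mt-Nd2 missed it on leaving out any of 6 samples of the 10. DESeq2 called 5, adding mt-Atp8 and mt-Nd3. With library sizes taken from nuclear genes alone, the same number, 3, was DE, while the share of higher genes among all DE genes of this comparison went from 46.4% (903 of 1946) to 35.7% (687 of 1924). That scaling shifted the median over all genes by -0.033 on the log2 scale.

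The remaining 9 tested mRNA genes did not pass the edgeR test. mt-Co1 was at 2110.8 ± 199.8 CPM with header number 57 and 2188.4 ± 444.7 CPM in the others (SD, n = 4 and 6), with a log2 fold change of -0.052 and an SE of 0.15 (adjusted p = 0.872). The 4 tested genes shared almost whole with chromosome 1 were not DE by edgeR either, with log2 fold changes from -0.86 for mt-Nd3 to 0.48 for mt-Co2. mt-Atp8, of complex V, was highest with header number 51. It had 12.6 CPM in control replicate 1 and 24.7 CPM in Dot1l-cKO replicate 1, the pair with that number, and 0.243 to 2.10 CPM in the other 8 samples. Its log2 fold change for header number 57 was -3.66 with an SE of 1.14 (adjusted p = 0.0645).

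**Figure D4:**
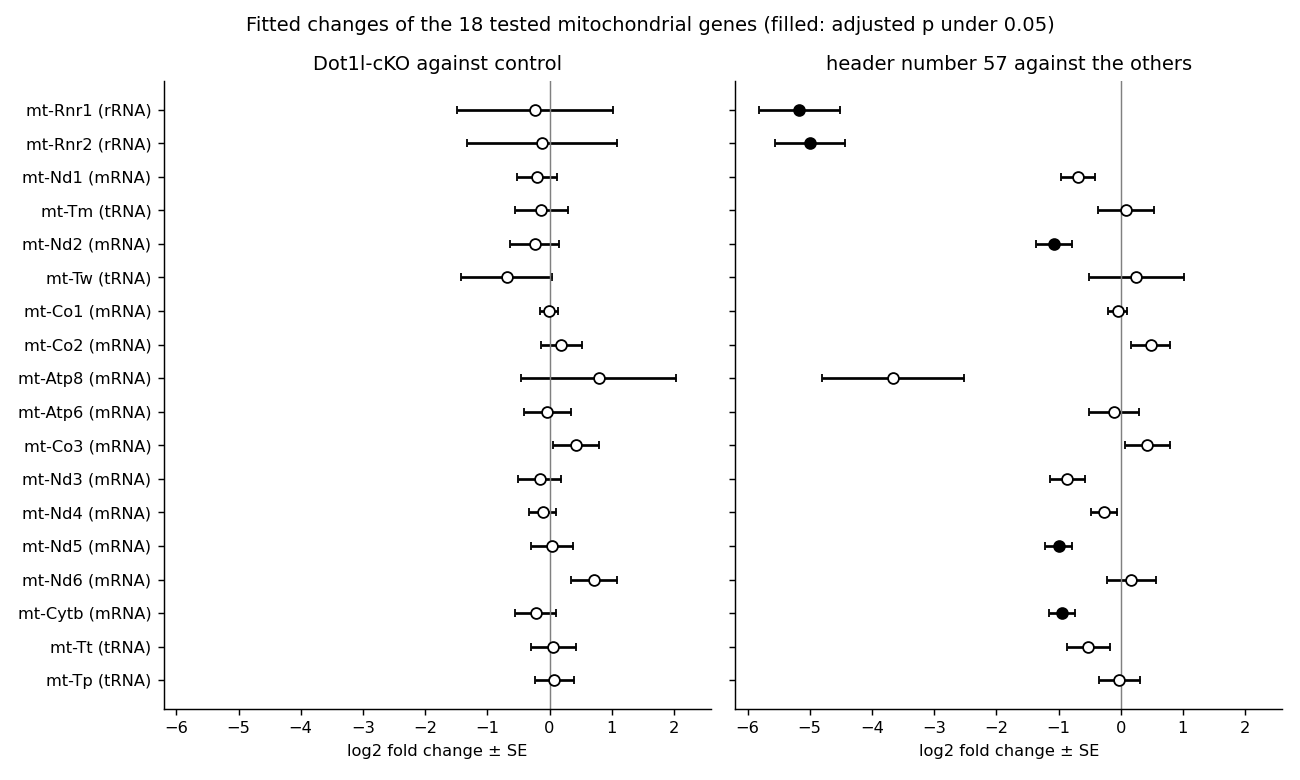
Fitted log2 fold changes with SE of the 18 tested genes in genome order, Dot1l-cKO against control on the left and header number 57 against the others on the right, with filled points for an adjusted p under 0.05. On the left no point is filled and all lie between -0.69 and 0.79, and on the right the filled points are both rRNA genes, mt-Nd2, mt-Nd5 and mt-Cytb.

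A share within the class does not depend on library size. mt-Co1 made up 63.6%, 70.4%, 72.0%, 64.2% and 69.4% of the mRNA counts in controls. In Dot1l-cKO it made up 62.5%, 84.8%, 75.5%, 66.5% and 65.1%. The highest 4 shares, 70.4% to 84.8%, were those with header number 57, the other 6 were 62.5% to 69.4%, and the genotypes overlapped. The mean was 67.9% ± 3.78 in controls and 70.9% ± 9.20 in Dot1l-cKO (SD, n = 5 each), and without Dot1l-cKO replicate 2 the difference changed sign, from 2.93 to -0.551 percentage points. Together, mt-Co1, mt-Cytb and mt-Nd1 held 92.0% to 96.6% of the mRNA counts of each sample. mt-Cytb ranged from 5.47% in Dot1l-cKO replicate 2 to 15.9% in control replicate 4 and Dot1l-cKO replicate 5. In Dot1l-cKO replicate 2, the sample with the least rRNA, mt-Nd1, mt-Nd2, mt-Nd4, mt-Nd5 and mt-Cytb also had their lowest shares of all samples.

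The 22 tRNA genes, which supply the tRNAs for translation inside the organelle, gathered few counts. They summed to 72 to 165 in controls and 89 to 189 in Dot1l-cKO, or 1.14 to 3.37 in every 1000000 counts. tRNAs are shorter than the fragments such libraries are built from, so the counts say little about mature tRNA. Of the 22, 12 were at 0 in every sample, which allows up to 0.0451 to 0.0553 counts in every 1000000 of a sample, and 10 had a count in some sample. Only mt-Tw, mt-Tt, mt-Tm and mt-Tp, the genes of the tRNAs for tryptophan, threonine, methionine and proline, passed the filter on low counts, and they held 84.9% of the 1280 tRNA counts. The genes with the most counts were mt-Tw, with 400 in all, and mt-Tt, with 380. The whole genes are chrM:4950-5016 and chrM:15289-15355, both on the plus strand.
mt-Tw: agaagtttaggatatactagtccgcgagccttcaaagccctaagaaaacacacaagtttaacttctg
mt-Tt: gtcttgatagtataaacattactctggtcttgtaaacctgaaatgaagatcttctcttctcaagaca

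Genes with counts were mostly those with room beside them on their own strand. Room was taken as a gap of at least 70 bases to the next gene on a side, or no further gene up to the end of the numbering. This limit was chosen after the values were seen, and no test was made. Of the 11 genes with room, 9 had counts, and of the 11 without, 1 had. That exception was mt-Tl1, with 5 counts in all, which lies without a gap between mt-Rnr2 and mt-Nd1 as shown above. With room but at 0 were mt-Tf, the first gene of the numbering, and mt-Ts1, which lies in the stretch shared with chromosome 1. That stretch wholly holds 5 tRNA genes, mt-Ts1, mt-Td, mt-Tk, mt-Tg and mt-Tr, and all were at 0 in every sample. All of them but mt-Ts1 were without room, so for these genes lack of room and the nuclear copy cannot be told apart. Just outside the limit was mt-Td, with a gap of 69 bases and no count. On the sides with no gap, a read that leaves the tRNA gene enters the next gene.

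**Figure D5:**
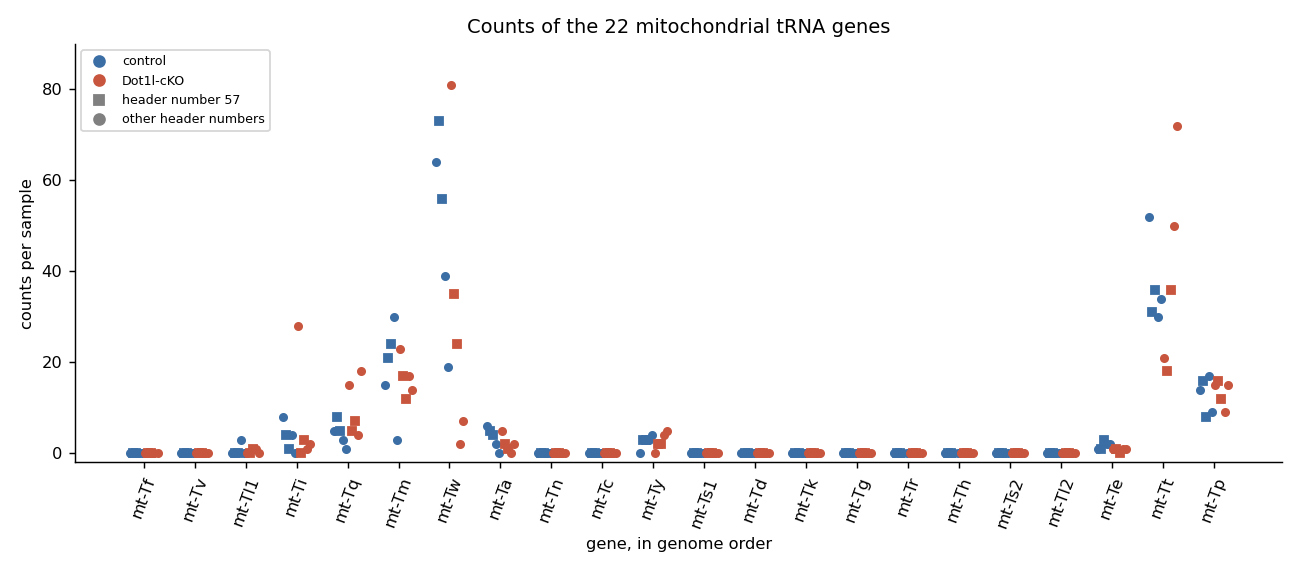
Counts of the 22 tRNA genes in genome order, with a point for each of the 10 samples (blue: control, red: Dot1l-cKO, squares: header number 57). The genes mt-Tw and mt-Tt reach 81 and 72 counts, and 12 genes are at 0 in every sample.

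None of the 4 tested tRNA genes was DE between genotypes, beside 7.11% of all genes, and none had an unadjusted p under 0.05, beside 20.6%. With 4 genes, a count of 0 is near those shares. mt-Tw had 1.29, 1.28, 0.838, 0.607 and 0.306 CPM in controls. In Dot1l-cKO it had 1.53, 0.607, 0.420, 0.0301 and 0.113 CPM. The highest sample and the 2 lowest were Dot1l-cKO, and the log2 fold change was -0.69 with an SE of 0.73 (adjusted p = 0.651), or -1.14 with the replicate block (adjusted p = 0.177). Its Dot1l-cKO to control ratio was 1.19 between the samples of replicate 1, 0.0497 for replicate 4 and 0.368 for replicate 5, and in the latter pairs Dot1l-cKO had 2 and 7 counts against 39 and 19.

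For mt-Tt the controls had 1.04, 0.544, 0.539, 0.467 and 0.548 CPM. The Dot1l-cKO samples had 0.396, 0.312, 0.630, 0.754 and 1.16 CPM. The groups overlapped almost wholly, with a log2 fold change of 0.063 and an SE of 0.36 (adjusted p = 0.947). mt-Tm, with 3 to 30 counts, and mt-Tp, with 8 to 17, had log2 fold changes of -0.13 with an SE of 0.43 (adjusted p = 0.904) and 0.077 with an SE of 0.31 (adjusted p = 0.922). In CPM, mt-Tm had 0.301, 0.368, 0.359, 0.467 and 0.0484 in controls and 0.434, 0.295, 0.210, 0.256 and 0.225 in Dot1l-cKO, where control replicate 5 was the lowest. mt-Tp had 0.281, 0.281, 0.120, 0.265 and 0.145 CPM in controls and 0.283, 0.277, 0.210, 0.136 and 0.242 CPM in Dot1l-cKO, which overlap. By header number 57, 0 of the 4 were DE by edgeR, and none had an unadjusted p under 0.05, where 28% of all genes did. DESeq2 called none of the 4 either, but it gave mt-Tp no adjusted p.

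The nuclear genes that serve mitochondrial RNA and DNA were followed by a list of 48 that covers transcription, RNA processing, stability and modification, and replication. All 48 were tested, and 1 was DE between genotypes, where 7.11% of all genes were. Of the 48, 33 were below 0 and 15 above, where 8717 of all 17039 tested genes were below 0. The median log2 fold change was -0.067 beside -0.0056 for all genes. The gene that was DE was Top1mt, the mitochondrial topoisomerase I, which relieves twist in mitochondrial DNA. It had 5.95, 6.4, 6.61, 6.66 and 7.24 CPM in controls and 8.39, 10.5, 8.78, 9.56 and 7.57 CPM in Dot1l-cKO. Every Dot1l-cKO sample was above every control, and the log2 fold change was 0.45 with an SE of 0.11 (adjusted p = 0.0323). The call was lost on leaving out any of 7 samples of the 10 and under the replicate block (adjusted p = 0.0527), with log2 fold changes of 0.38 to 0.49 when a sample was left out.

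Genes for the core of mitochondrial transcription were not DE. Polrmt, the polymerase, had a log2 fold change of -0.046 with an SE of 0.097 (adjusted p = 0.838). Tfam, which packages the DNA and starts transcription, had -0.11 with an SE of 0.088 (adjusted p = 0.521). Lrpprc, which stabilises mitochondrial mRNAs, had -0.017 with an SE of 0.072 (adjusted p = 0.926). By header number 57, 40 of the 48 were above 0, where 9020 of all 17039 tested genes were. An unadjusted p under 0.05 was found for 14 of the 48, near the 28% of all genes. Of the 48, 1 was DE, where 11.4% of all genes were: Supv3l1, a helicase of mitochondrial RNA decay, at 35.1 ± 2.30 CPM with header number 57 and 30 ± 1.11 CPM in the others (SD, n = 4 and 6, adjusted p = 0.0374).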

How the data were processed

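RNA was sequenced as stranded paired-end libraries from rRNA-depleted total RNA of 5 control and 5 Dot1l-cKO samples. The authors trimmed reads with Trim Galore 0.2.8, aligned them to mm10 with TopHat2 2.0.9 and counted reads per gene with HTSeq 0.6.0 in reverse-stranded mode. Its overlap mode is not given in the sources used here. In that mode of counting by strand, reads of opposite genes are kept apart. The deposited counts are whole numbers and not normalised. The other deposited tables hold normalised signal per gene, which are these counts divided by the DESeq2 1.6.1 size factor of the sample, and only their header numbers were used, as the batch. Groups and replicate numbers came from the sample titles. A gene of the study design, also planned as a marker, is not reported here.

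Differential expression was tested on the counts with edgeR 4.0.16 (R 4.3.3): filterByExpr, TMM, the quasi-likelihood test and Benjamini-Hochberg adjustment over all 17039 tested genes, DE at an adjusted p under 0.05. The design had no covariate for genotype, and genotype as a term for header number 57 against the others. The SE was taken from the fold change and its F statistic and is approximate. Levels are TMM-scaled CPM, per kilobase of gene length where genes are compared. The test was tried on simulated counts. Sums over genes got no test. Genes were matched to GENCODE M21 of GRCm38, which gave 42548 of 43629 identifiers a symbol, and identifiers without one held 0.268% of counts. Nuclear copies were found by BLAST of mitochondrial genes against the annotated transcripts (at least 60 bases and 90% identity). Windows of 100 and of 50 bases were matched exactly. The design foresaw a search of the whole genome, but no genome sequence was used here.

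Values in every sample are given for both rRNA genes, the 3 mRNA and 3 tRNA genes with the lowest genotype p, mt-Nd6, the mRNA genes highest and lowest per length and the 3 tRNA genes with the most CPM. Genes DE by header number and the genes of the chromosome 1 block were added after their values were seen. The genes, lists and tests were chosen with earlier results of these data known. Every pair of samples within a group differed by more than sampling noise (chi-square of the gene counts, at least 30.8 per degree of freedom). The labels call replicates biological. Between control and Dot1l-cKO samples of the same replicate number, deviations from the group means correlated at 0.229, 0.349, 0.145, 0.597 and 0.131 for numbers 1 to 5. The mean correlation with the other numbers was -0.152 to -0.0392. For numbers 2, 3 and 5, however, the control correlated most with a Dot1l-cKO sample of another number, so pairing by replicate number is uncertain. The numbers also carry the header numbers. Reads had no molecular identifiers, so limits set from counts take in counting error alone. Alternatives were DESeq2 1.42.0, DESeq2 size factors, nuclear-only scaling, 2 other filters, the replicate block, the header number as a block, samples within and outside header number 57, and each sample left out. Header number 57 as a term, the header block outside 57 and the checks on the mt-Co1 share were added after seeing the data.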

Additional observations from a re-analysis of the deposited data

Results flagged for a closer look

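In 44 sets of 5 samples (the 18 tested genes, the 3 summed classes and the mt-Co1 share, by genotype), 3 had a sample whose gap to the nearest other sample, as a fraction of the whole range (on the log2 CPM scale, or in percent for the share), exceeded Dixon's 95% critical value of 0.71. Chance alone marks about 1 in 20 such sets. mt-Tm was low in control replicate 5, at -4.37 against a group median of -1.48 (gap 0.807), where it had 3 counts. mt-Tt was high in control replicate 1, at 0.063 against -0.88 (gap 0.80), with 52 counts. mt-Nd3 was high in Dot1l-cKO replicate 1, at 0.56 against -0.38 (gap 0.759), with 78 counts in a gene whose sequence is almost wholly shared with chromosome 1.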

How the results depend on the processing

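No mitochondrial gene was DE between genotypes under any alternative run, though DESeq2 gave mt-Atp8 no adjusted p. In the interaction with header number 57 the count was 0 in each run. By edgeR's quasi-likelihood test, the count over all genes was 1212, and it moved to 2011 with DESeq2, 745 outside header number 57, 1 within it, and 750 to 1357 with a sample left out. With the replicate block, 1604 genes were DE, no mitochondrial gene was, and mt-Nd5 turned to -0.069, mt-Atp8 went from 0.79 to 0.18 and Top1mt lost its call, and no other call changed among the mitochondrial genes, Dot1l, Polrmt, Tfam and Lrpprc. Of the machinery list, 0 genes were DE under that block, with no low-count filter (Top1mt 0.43, adjusted p = 0.0814), outside header number 57 with and without the header block, and within header number 57, and 0 to 1 with a sample left out. Directions that turned, all of genes that were not DE, were mt-Nd5 at -0.030 with header number 57 as a term, -0.054 with the header block and -0.30 within header number 57. Outside header number 57, mt-Tm turned to 0.14 (0.29 with the header block), mt-Nd4 to 0.086 (0.030), mt-Tp to -0.076 (-0.083) and Polrmt to 0.010 (0.0049). Within header number 57, mt-Co1 turned to 0.25, mt-Atp8 to -0.98, mt-Atp6 to 0.13, mt-Nd3 to 0.20, mt-Tt to -0.18, Dot1l to -0.37 and Lrpprc to 0.11. The cause of these changes was not tested, but within header number 57 there were 2 samples per genotype. With a sample left out, 33 of 180 genotype values and 13 of 180 header values turned. The genotype values then ran from -0.72 to 0.16 for mt-Rnr1, -0.80 to 0.28 for mt-Rnr2, -0.41 to 0.073 for mt-Tm, -0.12 to 0.10 for mt-Co1, -0.067 to 0.37 for mt-Co2, -1.70 to 2.48 for mt-Atp8, -0.38 to 0.21 for mt-Atp6, -0.44 to 0.048 for mt-Nd3, -0.32 to 0.035 for mt-Nd4, -0.22 to 0.24 for mt-Nd5, -0.26 to 0.31 for mt-Tt, -0.084 to 0.22 for mt-Tp, -0.046 to 0.25 for Dot1l, -0.13 to 0.010 for Polrmt and -0.071 to 0.0066 for Lrpprc. The header values ran from -0.18 to 0.34 for mt-Tm, -0.16 to 0.057 for mt-Co1, -0.35 to 0.22 for mt-Atp6, -0.015 to 0.55 for mt-Nd6 and -0.21 to 0.21 for mt-Tp. For header number 57, DESeq2 called 5 mRNA genes and leaving out a sample gave 1 to 4, while the tRNA and rRNA counts stayed at 0 and 2. Summed levels, as log2 ratios of Dot1l-cKO over control, were -0.060 for mRNA, -0.13 for tRNA and -0.13 for rRNA, and with a sample left out ran from -0.23 to 0.038, -0.41 to 0.037 and -0.79 to 0.25. Low counts limit the tRNA genes and the 5 genes shared with chromosome 1, which had at most 243 counts in any sample.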
